A study of Mus musculus with 12 samples.

Results

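Genes whose kidney expression differed between MRL/lpr and C57BL/6 mice by a similar amount at both ages examined are described here, one age being 8 weeks and the other 17 weeks. The members were chosen from the mean of the strain differences at the 2 ages: a gene had to pass an adjusted p of 0.05 for that mean, differ in the same direction at both ages, and have a 95% interval for the change of its strain difference with age that lay within 1 unit either way on the log2 scale, that is, within a 2-fold change. Of 12931 genes tested, 3108 passed the threshold for the mean difference and 2730 of these met all 3 conditions. They are called alike genes below.

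The series holds 12 mRNA libraries from mouse kidney, with 3 libraries for each strain at each age, that is, 4 groups. The labels give the genotypes as C57BL/6 and MRL/MpJ-Fas<lpr>/J and name no treatment, sex or promoter-driven allele. The strain therefore combines the lpr allele of Fas, any disease and the whole remaining MRL background, and these cannot be told apart in this design, which has no MRL group without lpr. Nothing in the labels ties replicates to individual animals, so p values measure only the spread between these libraries, which may be technical.

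MRL/lpr mice are a classical model of lupus: loss of the death receptor Fas lets autoreactive and unusual T cells accumulate, and immune complexes and leukocytes reach the kidney as the animals age. Inbred strains also differ at fixed positions throughout the genome, including promoters, gene copies and whole gene clusters. Whether a strain difference of similar size at both ages comes from such positions or from disease was not tested. C57BL/6 is the strain of the mouse reference genome, and well known differences between it and other strains include the number of renin genes, the mitochondrial transhydrogenase Nnt and several interferon-inducible and Trim gene clusters.

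Values are FPKM, fragments scaled to transcript length and to the fragments of the library, summed over the mRNAs of each gene. Differences are MRL/lpr minus C57BL/6 on the log2(FPKM + 1) scale, given ± SE, with adjusted p values from limma over all tested genes. Read depth is unknown, so no counting error is given, and a value of 0 is written as listed at 0. Between 12079 and 13011 genes reached 1 FPKM in a library. The tissue showed its kidney markers in every library: Slc34a1, the phosphate carrier of the proximal tubule, was at least 1608 FPKM, Umod of the thick ascending limb at least 1883, Lrp2 at least 98.65 and the water channel Aqp2 at least 105.1. Fas, the gene named in the genotype, ranged from 5.88 to 9.95 FPKM in C57BL/6 and from 4.67 to 7.73 in MRL/lpr libraries, and its mean difference of -0.24 ± 0.11 did not pass (adjusted p = 0.164, limma). Over curated mRNAs alone the Fas difference was -0.43 and passed (adjusted p = 0.0348, limma). C57BL/6 17 weeks replicate 2 stood apart from its strain. Its mean log2 level was 5.34 over the macrophage and monocyte list, against 2.5 to 3.08 in the other 5 C57BL/6 libraries. Over the tubular injury list it was 5.83, against 3.1 to 3.45. MRL/lpr 8 weeks replicate 3 stood apart within its group. Its level was 5.36 over the MHC class I list, against 3.91 and 3.83 in the other 8-week MRL/lpr libraries. Over the MHC class II list it was 5.83, against 4.17 and 4.07. Over the interferon-stimulated list it was 3.91, against 2.62 and 2.5.

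Most strain differences were small and were alike at both ages. Of all tested genes, 24% passed the threshold for the mean difference, with 11.5% higher and 12.6% lower in MRL/lpr. The alike genes were 21.1% of tested genes and 87.8% of those called, and comprised 1259 higher (9.74%) and 1471 lower (11.4%) genes. Their median absolute difference was 0.347 on the log2 scale, and 1984 of them differed by less than 0.5. A difference of 1 or more, that is 2-fold, was reached by 183 alike genes, of which 98 were higher and 85 lower in MRL/lpr, and a difference of 2 or more by 42. All 6 MRL/lpr values lay on one side of all 6 C57BL/6 values for 1273 alike genes (46.6%), beside 11.1% of tested genes (4.82% higher, 6.23% lower). The choice of members rests on the same contrast, so this last share is a description.

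The 378 called genes that were not alike were a mixed set. Only 48 had opposite signs at the 2 ages and 42 had a change of 2-fold or more, while 298 had the same sign and an estimated change under 2-fold but an interval too wide to lie within the margin. The median SE of the change with age was 0.353 in these 378 genes, 0.137 in the alike genes and 0.143 over all tested genes. Just inside the margin stood Shank3 with a change of -0.50, S100g with 0.37 and Slc52a3 with 0.53, and just outside it Cd27 with 0.47, Anxa13 with -0.38 and Slc28a1 with 0.67. When C57BL/6 17 weeks replicate 2 was left out, 4651 genes were called and 3941 were alike, and 2654 of the 2730 alike genes (97.2%) kept that status. Over curated mRNAs alone 2446 of them could be tested, of which 1531 were alike and 108 differed in the opposite direction. The 1531 are 56.1% of all 2730 alike genes, a share that counts those that could not be tested as not alike.

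The ages were also analysed separately, with no library in common. The 8-week libraries alone gave 2538 called genes (19.6% of tested genes) and the 17-week libraries alone gave 846 (6.54%). Of the 8-week calls, 92.4% had the same sign at 17 weeks and 24.9% were called there, and of the 17-week calls 94.8% had the same sign at 8 weeks and 74.8% were called. Over all tested genes 69.7% had the same sign. Called at both ages in the same direction were 633 genes, and 4 were called in opposite directions. Across genes, which are not independent replicates, the differences at the 2 ages had a Pearson correlation of 0.846 and a Spearman correlation of 0.622. The counts depended on single libraries. Without any 1 of the other 17-week libraries the 17-week count was 262 to 307, and without any 1 of the 8-week libraries the 8-week count was 1519 to 2408. Without C57BL/6 17 weeks replicate 2 the 17-week libraries called 3113 genes instead of 846, 51.1% of the 8-week calls were called again and 41.7% of the 17-week calls were called at 8 weeks. Same-sign shares then fell to 88.8% and 85.2%, beside 65.7% over all genes.

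**Figure D1:**
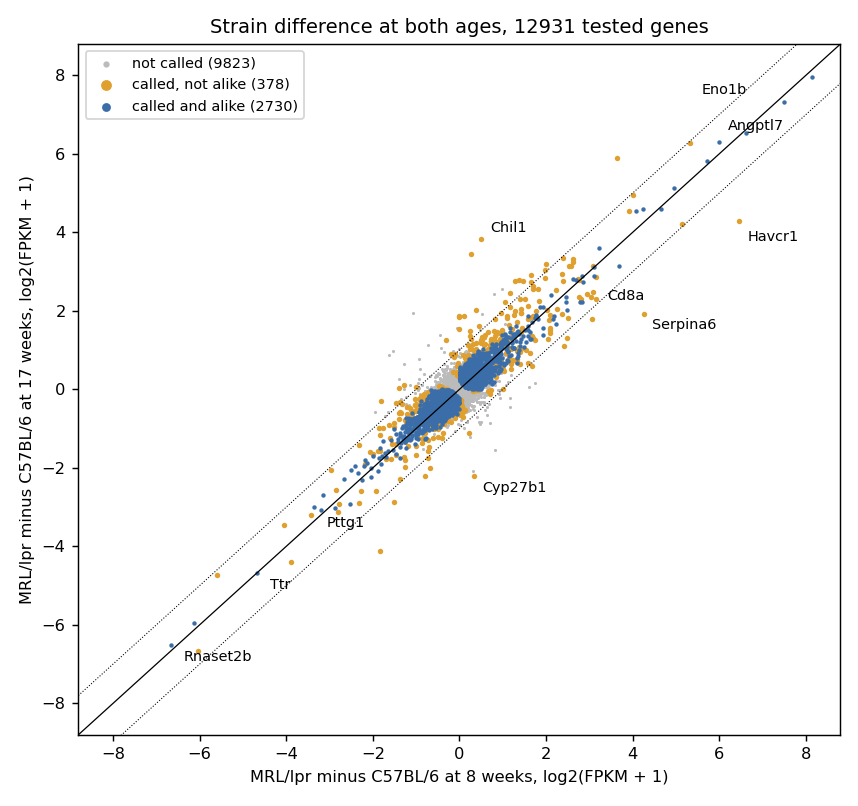
Each point is 1 of 12931 tested genes, with its MRL/lpr minus C57BL/6 difference at 8 weeks on the x axis and at 17 weeks on the y axis, both in log2(FPKM + 1). The solid line marks equal differences and the dotted lines a change of 1. The 2730 alike genes, in blue, lie along the solid line from Rnaset2b at -6.67 and -6.51 to Rpl34-ps1 at 8.14 and 7.95, while Cyp27b1 and Chil1 lie far from it.

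Angptl7 encodes a secreted angiopoietin-like protein best known from the eye and from connective tissue. It had the largest difference among the alike genes named here that have no near-identical copy. In C57BL/6 kidneys it was at 1.78, 1.58 and 1.87 FPKM at 8 weeks and at 2.74, 1.69 and 2.56 at 17 weeks. In MRL/lpr kidneys it was at 238.96, 149.82 and 149.28 at 8 weeks and at 259.32, 219.09 and 311.03 at 17 weeks. Every MRL/lpr library was thus far above every C57BL/6 library, and absence of overlap was a condition of its choice. The difference was 6.00 ± 0.19 at 8 weeks and 6.31 ± 0.19 at 17 weeks, with a mean of 6.16 ± 0.14 (adjusted p = 4.01e-10, limma). Angptl7 (chromosome 4, 148495181 to 148500462, GRCm38.p6) lies inside the span of Mtor, which encodes the mTOR kinase (148448582 to 148557685). Mtor itself was lower in MRL/lpr, by -0.44 ± 0.08 (adjusted p = 0.00176, limma), with values from 22.21 to 23.82 FPKM against 26.31 to 37.64. Whether the counting used strand is not given in the sources used here, so reads from the overlapping stretch cannot be assigned to one of the genes with certainty.

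Pttg1 encodes securin, the inhibitor of separase in mitosis, and was one of the lowest alike genes. In C57BL/6 it was at 71.59, 69.47 and 67.36 FPKM at 8 weeks and at 60.42, 72.62 and 60.4 at 17 weeks. In MRL/lpr it was at 6.47, 5.28 and 5.76, then at 9.21, 5.71 and 7.01. The groups did not overlap, a condition of its choice, and the mean difference was -3.18 ± 0.10 (adjusted p = 2.74e-09, limma). Over its curated mRNA alone the Pttg1 difference was -2.28. Cpn1, the catalytic subunit of carboxypeptidase N, which trims kinins and complement peptides, was at 103.38, 95.54 and 92.28 FPKM at 8 weeks and 119.06, 92.35 and 112.26 at 17 weeks in C57BL/6. In MRL/lpr it was at 10.05, 11.46 and 8.93, then at 13.86, 17.35 and 16.68. The gap was present at both ages (-3.14 ± 0.12 and -2.68 ± 0.12), with a mean of -2.91 ± 0.08 (adjusted p = 1.75e-09, limma).

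The reference promoters of 5 alike genes described here, 3 higher and 2 lower, are printed so that their start regions can be compared. They are the 250 bases before 1 transcript start per gene that RefSeq lists on GRCm38.p6, a C57BL/6 sequence, written 5′ to 3′ on the gene's strand. The Pttg1 window lies inside the span of the gene (43420244 to 43427463), and the windows of Cpn1 and Serpina3b overlap the edge of theirs. Other starts of these genes were not examined. Capitals mark TATAAA, the core of a TATA box, or GTTAAT, a half-site of the HNF1 factors of liver and kidney epithelium. The sequence of these windows in MRL/lpr mice was not analysed here.
Angptl7, chr4:148500463-148500712, minus strand: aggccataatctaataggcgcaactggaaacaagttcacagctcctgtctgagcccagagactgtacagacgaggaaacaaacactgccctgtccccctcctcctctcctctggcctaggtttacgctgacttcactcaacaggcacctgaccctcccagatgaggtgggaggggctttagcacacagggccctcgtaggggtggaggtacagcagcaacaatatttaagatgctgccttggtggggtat
Ren1, chr1:133350424-133350673, plus strand: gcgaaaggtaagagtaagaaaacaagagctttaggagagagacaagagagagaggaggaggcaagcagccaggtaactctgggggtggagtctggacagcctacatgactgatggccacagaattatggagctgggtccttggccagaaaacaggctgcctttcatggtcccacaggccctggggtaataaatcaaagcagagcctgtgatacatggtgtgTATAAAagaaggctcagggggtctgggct
Serpina3b, chr12:104127746-104127995, plus strand: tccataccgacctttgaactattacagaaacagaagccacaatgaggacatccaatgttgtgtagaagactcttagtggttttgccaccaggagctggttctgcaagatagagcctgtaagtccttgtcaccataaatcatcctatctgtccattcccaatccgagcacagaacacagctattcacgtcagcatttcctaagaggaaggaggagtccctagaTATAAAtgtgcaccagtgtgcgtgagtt
Pttg1, chr11:43425982-43426231, minus strand: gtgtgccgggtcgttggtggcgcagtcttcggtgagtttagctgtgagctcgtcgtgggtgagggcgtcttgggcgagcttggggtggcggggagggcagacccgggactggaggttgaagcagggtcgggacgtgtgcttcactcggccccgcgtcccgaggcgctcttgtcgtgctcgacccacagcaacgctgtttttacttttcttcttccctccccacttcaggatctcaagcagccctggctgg
Cpn1, chr19:43986521-43986770, minus strand: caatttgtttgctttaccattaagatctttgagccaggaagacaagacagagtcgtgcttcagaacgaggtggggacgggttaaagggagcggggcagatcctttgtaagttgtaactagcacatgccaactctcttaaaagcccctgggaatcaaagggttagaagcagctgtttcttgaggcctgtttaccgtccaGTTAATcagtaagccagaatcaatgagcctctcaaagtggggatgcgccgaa

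The TATAAA of Ren1 lay 29 bases before the start and that of Serpina3b 28 bases before it, counted from the first base of the motif, and the GTTAAT of Cpn1 begins 52 bases before the start. Angptl7 and Pttg1 held neither motif in this window, which for Pttg1 covers only a start inside the gene's span. Both strands were searched. The TATAAA motif, whose reverse complement reads TTTATA, was present in 12.4% of all 32851 RefSeq windows of this length. The other motif, GTTAAT (reverse complement: ATTAAC), was present in 6.43%. Among alike genes that differed at least 2-fold and had a window, TATAAA was in 8 of 63 higher and 3 of 65 lower genes, and GTTAAT in 6 of 63 and 6 of 65. These matches describe letters and not bound sites.

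Cd8a was also among the genes highest in MRL/lpr. It encodes a chain of the coreceptor of cytotoxic T cells. Cd8a was at 0.78, 0.75 and 0.7 FPKM at 8 weeks and 0.84, 1.65 and 0.83 at 17 weeks in C57BL/6, and at 14.06, 15.88 and 12.43, then 14.91, 12.96 and 15.13, in MRL/lpr. The values within MRL/lpr were nearly level over age, and the mean difference was 3.0 ± 0.10 (adjusted p = 5.61e-09, limma). In C57BL/6 only the library at 1.65 reached 1 FPKM, so Cd8a would not have met the filter without the MRL/lpr libraries. The Cd8a test is therefore no independent support for the difference. The mean of its partner chain Cd8b1 was 0.458 FPKM in C57BL/6 against 0.945 in MRL/lpr, with a difference of 0.40 that did not pass (adjusted p = 0.102, limma). The T cell list as a whole had a mean log2 level from 0.64 to 0.95 in 5 C57BL/6 libraries, 2.04 in C57BL/6 17 weeks replicate 2 and 1.25 to 2.51 in MRL/lpr. Cd8a in that C57BL/6 library was 1.65 FPKM, below the MRL/lpr range of 12.43 to 15.88.

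Pianp, a ligand of the inhibitory receptor PILR-alpha, ranged from 0.05 to 1.3 FPKM in C57BL/6 and from 7.63 to 14.12 in MRL/lpr (mean difference 3.12 ± 0.14). Cacna2d2, an accessory subunit of voltage-gated calcium channels, ranged from 0.07 to 0.25 and from 3.62 to 6.53 (2.35 ± 0.07). Neither gene had any overlap between the strains, a condition of their choice. Mybphl, related to cardiac myosin-binding protein, was listed at 0 in 5 C57BL/6 libraries and at 0.05 in the sixth, and at 4.23 to 9.44 in MRL/lpr. Greb1, an oestrogen-responsive gene, ranged from 0.05 to 0.17 in C57BL/6 and from 2.72 to 5.69 in MRL/lpr. Its difference of 2.27 ± 0.11 was 1.22 over curated mRNAs alone. Serpina3b, a serine protease inhibitor of an expanded mouse cluster, was at most 0.12 FPKM in C57BL/6 and 3.59 to 6.81 in MRL/lpr (2.53 ± 0.08), with the 8-week MRL/lpr libraries (5.21 to 6.81) above the 17-week ones (3.59 to 4.18). H2bc1, a testis histone H2B, was listed at 0 in all C57BL/6 libraries and at 14.71 to 28.44 in MRL/lpr. The summed FPKM of H2bc1, H2bc3 and H2bc4 differed by -0.07 ± 0.05, with -0.30 at 8 weeks and 0.17 at 17 weeks. Cacna2d2, Mybphl, Greb1, Serpina3b and H2bc1 stayed below 1 FPKM in every C57BL/6 library. They met the filter of 1 FPKM in 3 libraries only through MRL/lpr. Pianp, with a C57BL/6 median of 0.26 FPKM, would not have met it without the MRL/lpr libraries either. The tests of all these genes, Pianp included, are therefore no independent support for the difference.

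The lowest alike genes included several whose products are usually made in the liver or gut. Ttr, the plasma carrier of thyroxine and of retinol-binding protein, was at 48.03, 52.6 and 44.56 FPKM, then 50.56, 66.91 and 63.09, in C57BL/6, and at 1.13, 0.8 and 0.84, then 1.16, 1.5 and 1.49, in MRL/lpr. The difference was -4.68 at both ages and -4.68 ± 0.08 as a mean (adjusted p = 3.27e-11, limma). Over its curated mRNA alone the Ttr difference was -1.96. Apoa2, an apolipoprotein of high-density lipoprotein, ranged from 7.33 to 17.89 and from 0.12 to 0.94 (-3.14 ± 0.19). Fgl1, a fibrinogen-like protein, ranged from 3.22 to 4.98 in C57BL/6 and from listed at 0 to 0.15 in MRL/lpr (-2.24 ± 0.10). Atp4a, the catalytic subunit of the gastric proton pump, ranged from 20.95 to 34.58 and from 2.4 to 3.66 (-2.72 ± 0.09). Akr1e1, an aldo-keto reductase, ranged from 32.78 to 40.24 and from 5.83 to 10.54 (-2.08 ± 0.12). Less studied genes in the set were Smim6 (-2.47 ± 0.10), Cfap126, a protein of motile cilia (-2.19 ± 0.09), and Plac9a (-2.03 ± 0.16). For each of these the lowest C57BL/6 value was above the highest MRL/lpr value, a condition of their choice. Apoa2 and Fgl1 stayed below 1 FPKM in every MRL/lpr library, so they met the filter only through C57BL/6.

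**Figure D2:**
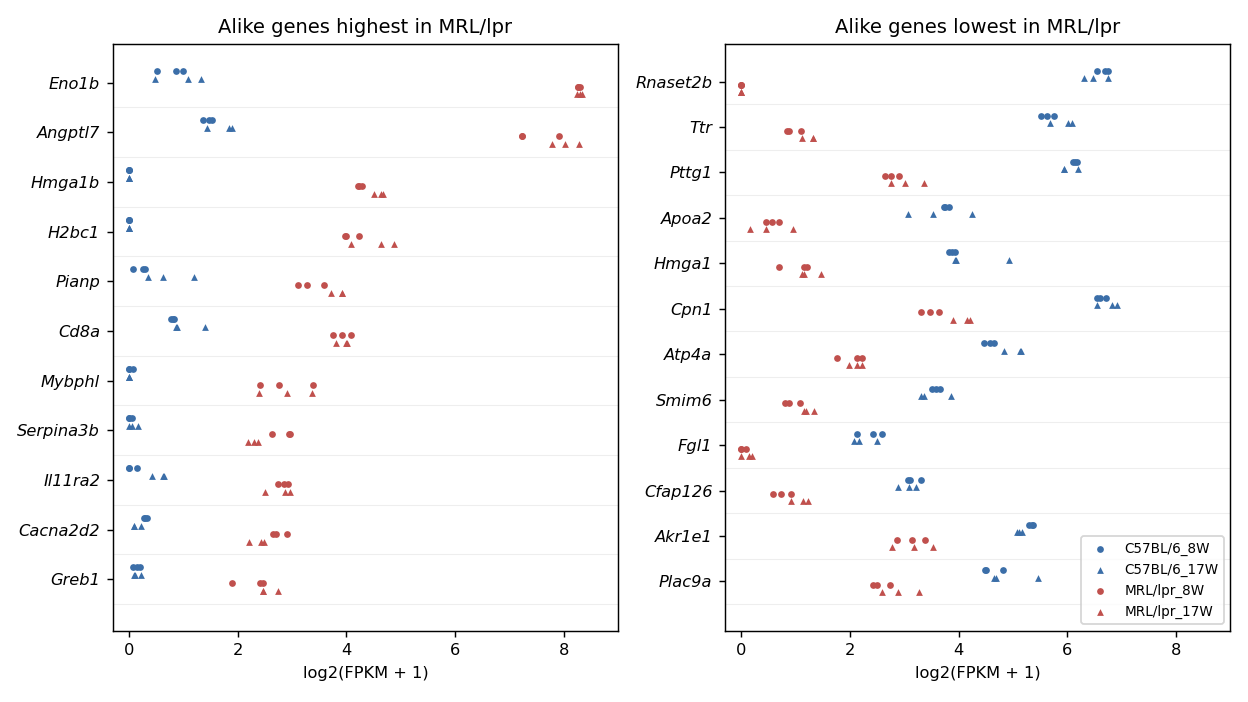
Each point is 1 library, with its level in log2(FPKM + 1) on the x axis, for 11 of the 12 alike genes highest in MRL/lpr (left) and the 12 lowest (right). Blue points are C57BL/6 and red points MRL/lpr, circles are 8 weeks and triangles 17 weeks. The strains do not overlap for any of these genes, a condition of their choice, and C57BL/6 17 weeks replicate 2 gives the Hmga1 value of 29.21 FPKM that lies apart from its group.

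The 24 highest and lowest alike genes, 12 each way, stayed past the threshold in every alternative analysis that could test them, and 9 of them also met the alike conditions in each. Angptl7 met them in 15 of 22 alternatives, in 6 of the 12 in which 1 library was left out, because its interval reached beyond the margin in the others. H2bc1 met them in 8 of 22, Apoa2 in 9 of 22 and Il11ra2 in 9 of 21.

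Some of the largest differences were in genes that have a near-identical copy. Of the 183 alike genes with a difference of 2-fold or more, 162 had a transcript in the GENCODE M21 annotation, and 22 of these (13.6%, with 13 higher and 9 lower) had another gene in the table whose transcript was at least 95% identical over at least 50% of the shorter transcript. Reads that fit both copies are divided by estimation, so the level of a single copy is uncertain while the sum is less so. Eno1b, an intronless copy of the glycolytic enzyme gene Eno1, was between 0.39 and 1.5 FPKM in C57BL/6 and between 303.37 and 320.55 in MRL/lpr (7.41 ± 0.13). Eno1 was lower in MRL/lpr, at 219.62 to 301.57 against 464.24 to 596.49 FPKM (-1.04 ± 0.06). The sum of both was 529 ± 56.3 FPKM in C57BL/6 and 567 ± 32.0 in MRL/lpr (SD, n = 6 each), and differed by 0.11 ± 0.05.

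The ribosomal protein gene Rpl34 and its copy Rpl34-ps1 exchanged places. Rpl34 was between 219.32 and 280.79 FPKM in C57BL/6 and between 1.85 and 4.02 in MRL/lpr, and Rpl34-ps1 was at most 0.92 in C57BL/6 and between 258.69 and 393.83 in MRL/lpr. Their sum differed by 0.39 ± 0.05. The chromatin protein gene Hmga1 (-2.94 ± 0.17) and Hmga1b, which was listed at 0 in C57BL/6 and at 17.46 to 24.46 FPKM in MRL/lpr, had a sum that differed by 0.44 ± 0.15. Rnaset2b, a lysosomal ribonuclease gene, was between 78.4 and 106.61 FPKM in C57BL/6, while each of the 6 MRL/lpr libraries listed it at 0. Rnaset2a was higher in MRL/lpr (0.71 ± 0.05), and the sum differed by 0.29 ± 0.04. Il11ra2, an interleukin-11 receptor gene (2.50 ± 0.09), had a sum with Il11ra1 and Gm13305 that differed by 0.27 ± 0.06. That sum was mostly the other genes, at 53.0 FPKM in C57BL/6, and Il11ra1 itself differed by -0.04, so it shows no exchange between copies. Rpl34-ps1, Hmga1b and Il11ra2 met the filter of 1 FPKM only through MRL/lpr, and Rnaset2b only through C57BL/6.

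In other families, apart from the alpha globins, the sum differed too. The peroxisomal thiolases Acaa1a (1.31 ± 0.11) and Acaa1b (1.09 ± 0.13) were both higher, with a sum of 420 ± 24.1 FPKM in C57BL/6 and 940 ± 201 in MRL/lpr (1.14 ± 0.12). The adhesion molecules Ceacam1 (-1.44 ± 0.08) and Ceacam2 (-1.03 ± 0.15) were both lower, with a summed difference of -1.15 ± 0.12. The Golgi and lysosomal nucleotidase Entpd4b was lower (-0.98 ± 0.05), and its sum with Entpd4 differed by -0.94 ± 0.05. The summed Serpina1 genes, the antitrypsins, differed by -2.21 ± 0.21, with -3.16 at 8 weeks and -1.26 at 17 weeks, a larger gap between ages than in the copies above. The alpha globin genes Hba-a1 (1.89) and Hba-a2 (-4.14) were called in opposite directions. The difference of their sum, 0.32 ± 0.44, was smaller than its SE, with 0.88 at 8 weeks and -0.23 at 17 weeks. Trim34a (-1.85 ± 0.17) and Trim34b (1.68 ± 0.12), interferon-inducible Trim genes also called in opposite directions, had a summed difference of -0.60 ± 0.17.

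**Figure D3:**
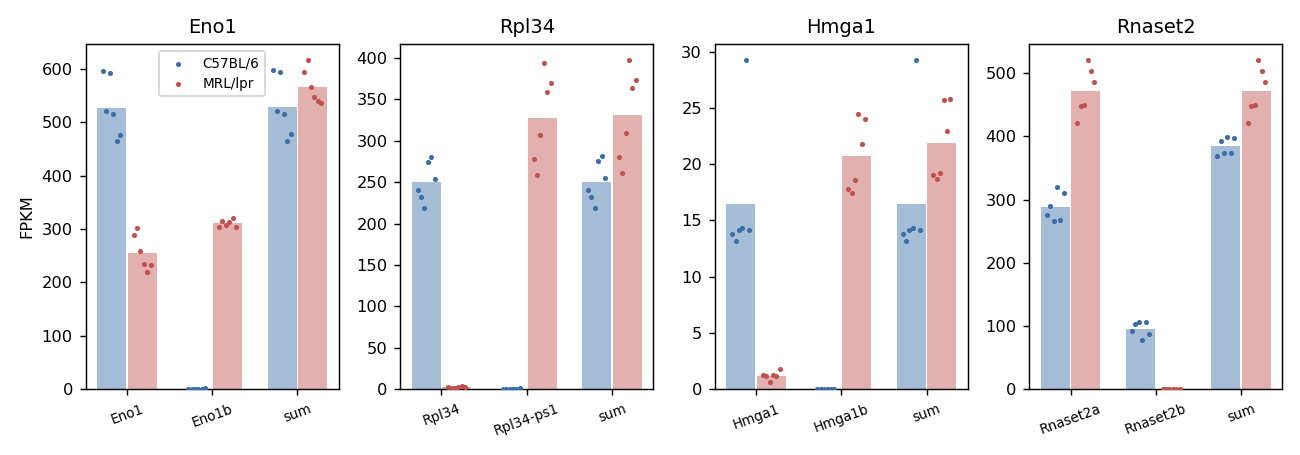
Bars show the mean FPKM of 6 libraries per strain and points the single libraries, for 4 pairs of near-identical genes and for their sums. Eno1b, Rpl34-ps1 and Hmga1b are near 0 in C57BL/6 and Rnaset2b is at 0 in MRL/lpr, while the summed bars of the strains stand much closer than those of the single copies.

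Alike genes were also found in runs along the chromosomes. Of 2712 alike genes with a next tested gene on the same chromosome, 26.3% had an alike gene as that neighbour, beside 19.7% after genes that were not alike and 21.1% of all tested genes. The share of alike genes ran from 14.4% on chromosome X to 26.4% on chromosome 4. The longest run had 12 genes on chromosome 4 (147939519 to 148582401), and no other exceeded 6. In genome order it included 2510039O18Rik (0.19), the chloride transporter Clcn6 (0.92), Agtrap, which binds the angiotensin receptor (0.29), Mad2l2 (0.29), and the F-box genes Fbxo6 (-0.41), Fbxo44 (-1.23) and Fbxo2 (-0.52). Mtor (-0.44), Angptl7 (6.16) and the exosome subunit Exosc10 (-0.11) followed. In all, the run held 7 higher and 5 lower genes, and 6 of the 12 had no overlap between the strains, a share like the 46.6% of all alike genes. Its call margins differed, from an adjusted p of 4.01e-10 for Angptl7 to 0.0443 for Mad2l2 by limma.

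**Figure D4:**
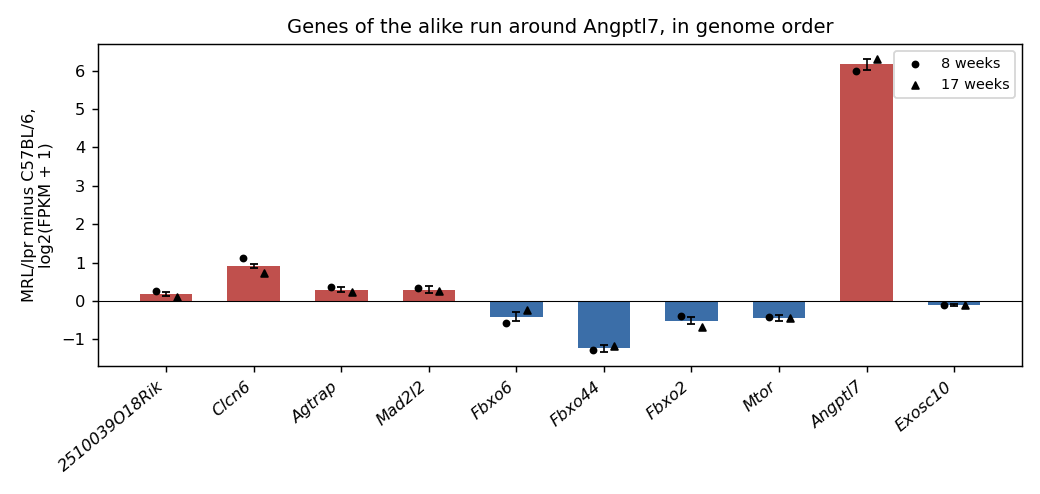
Bars show the mean strain difference with its SE for 10 of the 12 neighbouring alike genes on chromosome 4 in genome order, in log2(FPKM + 1), and points the difference at 8 weeks (circles) and 17 weeks (triangles). Angptl7 stands at 6.16 among neighbours between -1.23 and 0.92, and the points of each gene fall on the same side of 0.

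The next runs had 6 genes each. That on chromosome 11 (96788680 to 96944019) held the transcription factor Nfe2l1 (-0.47) and Copz2 (-0.66), beside Cbx1, Cdk5rap3 and Prr15l, which were higher by 0.25 to 0.31. That on chromosome 13 (73733052 to 74210032) held the sodium-hydrogen exchanger Slc9a3 of the proximal tubule (0.24) and Cep72 (-0.60). That on chromosome 17 (24508850 to 24682023) held the polycystic kidney disease gene Pkd1 (-0.30) and its neighbour Tsc2 (-0.22). That on chromosome 8 (23411383 to 25038962) held the Wnt antagonist Sfrp1 (0.66) and Adam9 (-0.23). Each of these runs mixed higher and lower genes. Nnt, which returns reducing power from NADH to NADPH in mitochondria, stood in a run of 5 on chromosome 13. It ranged from 36.47 to 52.86 FPKM in C57BL/6 and from 93.38 to 117.43 in MRL/lpr. The Nnt difference was 1.10 at 8 weeks and 1.15 at 17 weeks.

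Gene lists show which functions the alike genes fell into. Of 30 lists, 29 had at least 1 member past the threshold, and the lists were drawn up with earlier results of these data known, so their counts are descriptions. Each count is to be read beside the 11.5% higher and 12.6% lower genes among all tested, of which the alike ones were 9.74% and 11.4%, and each median beside -0.00873 over all tested genes. In bulk tissue, fewer cells of a type and less RNA per cell cannot be told apart.

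Endothelial genes were lower in MRL/lpr at both ages. Of 21 tested members 16 were lower and 0 higher, 13 of them alike, and the list had a median of -0.51 (-0.39 at 8 weeks and -0.68 at 17 weeks). The 13 included the junction cadherin Cdh5 (-0.65 ± 0.14), the diaphragm protein Plvap (-0.59 ± 0.12), which went from 83.6 to 116.46 FPKM in C57BL/6 to 54.16 to 86.32 in MRL/lpr, the glycoprotein Emcn (-0.65 ± 0.12) and the transcription factor Sox17 (-0.88 ± 0.14), at 5.18 to 8.68 against 1.6 to 3.57 FPKM. The guidance receptor Robo4 was lower by -1.01 ± 0.11 and was not alike, with -0.73 at 8 weeks and -1.28 at 17 weeks. Tek, Nos3, Cldn5, Icam2 and Ly6c1 did not pass, with values from -0.31 to -0.18. The mean log2 level of the list was 4.6 in C57BL/6 17 weeks replicate 2, 3.93 to 4.18 in the other C57BL/6 and 3.47 to 3.85 in MRL/lpr libraries. Without that library 17 of 21 were lower and 15 alike, and leaving out each library in turn gave 13 to 17 lower and 9 to 15 alike. Of 23 proximal tubule genes 4 were higher, all alike, and 0 lower.

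Of 15 podocyte genes 4 were lower, all alike (median -0.15): the transcription factor Wt1 (-0.54 ± 0.11), Podxl (-0.35 ± 0.09), Thsd7a (-0.30 ± 0.08) and Clic5 (-0.15 ± 0.04). The slit diaphragm gene Nphs1 (-0.04) did not pass. Without C57BL/6 17 weeks replicate 2 the podocyte list had 3 higher and 5 lower. Among 28 fibroblast and matrix genes 4 were lower and 1 higher (median -0.22), and the 4 lower were alike: the collagen gene Col5a2 (-1.99 ± 0.09), at 7.23 to 10.17 against 0.95 to 2 FPKM, the pericyte gene Rgs5 (-1.15 ± 0.14), Pdgfra (-0.72 ± 0.18) and Acta2 (-0.51). Without C57BL/6 17 weeks replicate 2 the median of that list was 0.03, with 4 higher and 4 lower. Of 28 loop, distal tubule and collecting duct genes 2 were higher and 6 lower (median -0.11), with 4 alike, among them the vasopressin receptor Avpr2 (-0.44 ± 0.10).

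Renin led the renin-angiotensin genes. Renin cleaves angiotensinogen as the first step towards angiotensin, and mouse strains carry either Ren1 alone or Ren1 with Ren2. Ren1 was at 120.84, 118.82 and 114.41 FPKM at 8 weeks and 108.9, 72.78 and 89.75 at 17 weeks in C57BL/6, and at 255.25, 334.59 and 318.78, then 145.38, 186.6 and 160.32, in MRL/lpr. Levels were lower at 17 weeks in both strains, and the strains did not overlap. The difference was 1.34 at 8 weeks and 0.86 at 17 weeks (mean 1.10 ± 0.10, adjusted p = 2.66e-05, limma). Ren1 met the alike conditions in 14 of 22 alternatives. Of the 14 members of the list tested, 5 were higher and alike and 0 lower (median 0.14). They included Ren1, the substrate gene Agt (0.41 ± 0.09) and the peptidases Anpep (0.33 ± 0.09) and Enpep (0.23). Leaving out each library in turn gave 2 to 6 higher, and Anpep remained called in 7 of 12 such fits. Ace (0.12) and the receptor gene Agtr1a (-0.03) did not pass.

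Transport and metabolism genes split in both directions. Of 45 solute carriers of the proximal tubule 6 were higher and 3 lower, with 5 and 3 alike (median 0.05). Without C57BL/6 17 weeks replicate 2 there were 8 higher and 8 lower, with 6 alike each way (median -0.04). Slc7a13, a cystine carrier, was at 0.42 to 1.33 FPKM in C57BL/6 and 3.85 to 7.61 in MRL/lpr (1.74 ± 0.14), and the sulfate carrier Slc26a1 at 20.63 to 39.67 and 59.59 to 99.38 (1.16 ± 0.13). The amino acid carrier Slc7a8 was lower, at 61.45 to 130.46 against 31.97 to 55.59 (-1.29 ± 0.12), as was Slc16a14 (-1.80 ± 0.11, and -0.97 over curated mRNAs alone). The organic anion carrier Slc22a6 (0.53 ± 0.11), the cubilin partner Amn (0.43 ± 0.08), Ttc36 (0.37 ± 0.10) and the inositol oxygenase Miox (0.34 ± 0.11) were the 4 alike members of the proximal tubule list (median 0.13). Over curated mRNAs alone Amn differed by 0.12 and did not pass (adjusted p = 0.492, limma), and with 1 library left out Miox remained called in 4 and Ttc36 in 8 of 12 fits.

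All 12 called genes of cholesterol synthesis and uptake, of 25 tested, were alike, and they did not share a direction: 5 were higher and 7 lower (median -0.03). Squalene epoxidase Sqle was lower, at 18.43 to 29.48 FPKM in C57BL/6 and 8.13 to 14.33 in MRL/lpr (-1.10 ± 0.13), and so was the desaturase Sc5d, at 11.21 to 14.28 and 5.25 to 7.31 (-1.01 ± 0.07). Mevalonate kinase Mvk was higher, at 9.05 to 9.72 against 6.28 to 7.94 (0.36 ± 0.06). Of 30 glutathione transferases and related genes 7 were higher and 7 lower, with 6 and 4 alike (median 0.05). Gstm2 was at 128.94 to 160.58 FPKM in MRL/lpr and 54.02 to 80.25 in C57BL/6 (1.14 ± 0.09), and Gsta4 at 54.68 to 123.28 and 149.3 to 212.57 (-1.24 ± 0.11). Gsta1 (4.67 ± 0.25) and Gsta2 (-1.38 ± 0.18), which are near-identical and were not alike, had a sum that differed by -1.05 ± 0.18. Of 34 cytochrome P450 genes 5 were higher and 8 lower, with 2 and 5 alike (median -0.06), and Cyp2d22 was higher at both ages (1.15 ± 0.09). Of 19 mitochondrial redox genes 1 was higher, Nnt, and 4 were lower, of which 3 were alike (median -0.04): the peroxiredoxin Prdx3 (-0.40 ± 0.06), the glutaredoxin Glrx2 (-0.31 ± 0.05) and Gpx4 (-0.16). Over curated mRNAs alone Glrx2 differed by -0.16 and did not pass (adjusted p = 0.0929, limma).

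Of 26 male-biased kidney genes 10 were higher and 2 lower, with 5 of the higher ones alike (median 0.35), and of 13 female-biased genes 2 were higher and 2 lower, with 3 alike (median 0.05). The labels give no sex. Of 19 circadian clock genes 6 were higher and 1 lower, with 5 alike (median -0.02), among them Hlf (0.41 ± 0.11), which differed by 0.05 over curated mRNAs alone. The labels give no time of day. Kallikreins had 0 called of 10 (limma, median -0.15). Haemoglobin and red cell genes had 2 higher and 2 lower of 10 (median 0.06), and the alike one was Alad, the porphyrin synthesis enzyme that some strains carry in extra copies. Alad was at 53.58 to 68.39 FPKM in C57BL/6 and 156.78 to 199.97 in MRL/lpr (1.46 ± 0.06). Glo1, the glyoxalase gene that also varies in copy number between strains, was at 57.27 to 67.16 and 120.5 to 137.1 (1.06 ± 0.04). These belong to a list of 26 genes known to vary between strains, of which 11 were higher and 9 lower, with 9 and 6 alike (median 0.58). Since this list was drawn up for strain variation, its share of called genes is no independent evidence.

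Secreted proteins typical of hepatocytes were mostly lower. Of 20 tested members 11 were lower and 2 higher, with 4 lower and 1 higher alike (median -0.94). The alike ones were Ttr, Apoa2, Apoc3 (-1.43 ± 0.12), Apoa4 (-1.07) and, higher, Apob (0.53). Albumin (Alb), the defining product of hepatocytes, had means of 16.5 FPKM (C57BL/6) and 3.97 (MRL/lpr), a difference of -1.33 that was not alike. In C57BL/6 the level of the list was 2.64 to 2.71 at 8 weeks and 2.83, 3.34 and 3.85 at 17 weeks. The highest was in C57BL/6 17 weeks replicate 3. In MRL/lpr it was 1.54 to 2.18. Leaving out each library in turn gave 9 to 13 lower. What the spread of this level adds to these results was not tested. Of 35 complement and coagulation genes 5 were higher and 10 lower, with 4 and 5 alike (median -0.06). Without C57BL/6 17 weeks replicate 2 there were 14 higher and 10 lower, and the median was 0.01. Of 12 genes of the Serpin a cluster 6 were higher and 3 lower, with 1 alike each way (median 1.14).

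Immune lists contributed many called genes and few alike ones. Not being alike does not show a change with age. No member of these lists had a called change with age, which only 7 of all tested genes had. The T cell median was 0.63 at 8 weeks and 1.0 at 17 weeks. For MHC class I it was 0.72 and 1.08, and for MHC class II 0.79 and 0.68. The class II gene H2-DMb2 differed by 3.08 and 3.13, with an interval for its change from -2.27 to 2.38. T cell genes were higher in 14 of 20 and lower in 0 (median 0.87), but only Cd8a and the checkpoint receptor Pdcd1 (0.79) were alike. MHC class I and antigen processing genes had 12 higher and 1 lower of 25 (median 0.90), with 2 alike, H2-T24 (0.82) and Tapbpl (0.65). MHC class II genes had 3 higher and 0 lower of 10 (median 0.74), with 0 alike. Interferon-stimulated genes had 13 higher and 2 lower of 46 (median 0.12), with 1 alike, Rsad2, which was lower (-0.86). Macrophage and monocyte genes had 1 higher of 26 (median 0.33), the protease Lgmn (0.30 ± 0.05), and B and plasma cell genes 1 higher of 9 (median 0.43), Cd22, which was not alike. Ifi200 genes had 1 higher and 2 lower of 9 (median -0.40), with Ifi208 alike (-0.66 ± 0.14). Fc receptor and Slam genes had 1 higher and 2 lower of 12 (median 0.16), and the 2 lower were alike: the inhibitory Fc receptor gene Fcgr2b (-0.56 ± 0.12), at 32.09 to 59.82 FPKM in C57BL/6 and 23.16 to 25.94 in MRL/lpr, and Slamf9 (-0.63 ± 0.18). With 1 library left out, Slamf9 did not pass in several of the fits (adjusted p up to 0.0694, limma). Trim12 and Trim30 cluster genes had 3 higher and 4 lower of 9 (median -0.38), with 1 and 2 alike. Tubular injury genes had 1 higher and 1 lower of 17 (median -0.07), with 0 alike.

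C57BL/6 17 weeks replicate 2 stood apart in these immune and injury lists and in others. Its mean level was 5.06 over the MHC class I list, against 3.58 to 3.81 in the other C57BL/6 libraries, and 5.79 over MHC class II, against 3.68 to 4.26. Without it, macrophage and monocyte genes had 21 higher of 26, T cell genes 20 of 20, MHC class I genes 20 of 25, MHC class II genes 6 of 10, B and plasma cell genes 6 of 9, Fc receptor and Slam genes 7 of 12, interferon-stimulated genes 18 of 46 and tubular injury genes 10 of 17. Higher and alike were then 4 macrophage, 3 T cell, 1 MHC class I, 1 MHC class II, 1 B and plasma cell and 2 tubular injury genes. Ifi200 genes then had 3 higher and 4 lower of 9, with 1 and 4 alike, whereas over curated mRNAs alone 1 of 7 was higher and 0 were alike. Trim12 and Trim30 genes had 3 higher and 4 lower of 9 without that library, with 1 and 4 alike. Outside the immune lists, its mean level was 4.63 over complement and coagulation genes, against 3.25 to 3.61 in the other C57BL/6 libraries, 4.46 over fibroblast and matrix genes, against 3.18 to 3.49, and 8.52 over proximal tubule genes, against 9.01 to 9.14. Without it, proximal tubule genes had 7 higher and 1 lower of 23, cytochrome P450 genes 8 higher and 9 lower of 34, and mitochondrial redox genes 2 higher and 7 lower of 19. Other libraries moved counts as well: MHC class I genes had 7 higher without C57BL/6 8 weeks replicate 2, and cholesterol genes 3 higher and renin-angiotensin genes 2 higher without C57BL/6 8 weeks replicate 1.

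**Figure D5:**
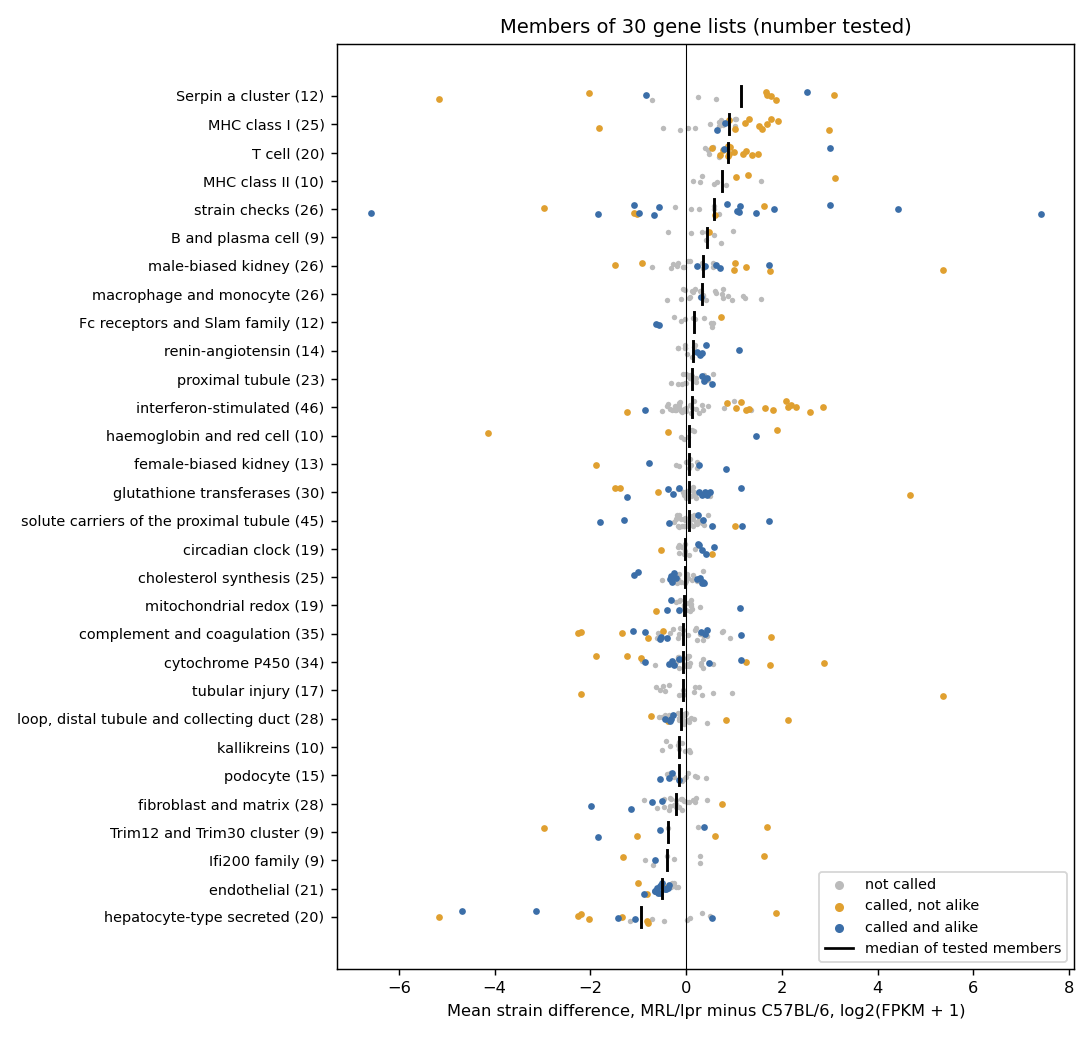
Each point is a tested member of 1 of 30 gene lists, with its mean strain difference in log2(FPKM + 1) on the x axis, and the black line is the median of the list. Blue points are alike genes, orange points called genes that were not alike and grey points genes not called. The endothelial list lies below 0 with mostly blue points, while the T cell and MHC class I lists lie above 0 with mostly orange or grey points.

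A change of the strain difference with age passed the threshold in 7 genes (0.0541% of tested genes), while 1331 had an unadjusted p under 0.05 by limma. This count depended on single libraries. Without C57BL/6 17 weeks replicate 2 it was 311. It was 892 with library weights and 1 to 13 when any other library was left out. Cyp27b1, the enzyme that activates vitamin D, was at 2.17, 1.21 and 1.13 FPKM at 8 weeks and 11.96, 9.96 and 8.49 at 17 weeks in C57BL/6, and at 2.06, 2 and 2.21, then 1.63, 1.08 and 1.5, in MRL/lpr. The C57BL/6 libraries of 17 weeks thus stood above the other 9. Its strain difference went from 0.33 ± 0.16 to -2.21 ± 0.16, and it was the one of the 7 that passed in all 22 alternatives. Tent4a, an RNA nucleotidyltransferase, met the alike conditions and passed the test of change as well. It was at 8.53 to 9.01 FPKM in C57BL/6, 15.35 to 16.31 in MRL/lpr at 8 weeks and 10.01 to 10.31 at 17 weeks, a difference of 0.79 that became 0.18. Among the alike genes, 357 had an unadjusted p under 0.05 for the change, so alike here means a change within 2-fold and not the absence of one.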

How the data were processed

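Kidney mRNA of 12 libraries was measured, 3 per strain and age. The authors deposited 1 table of FPKM for 72806 RefSeq mRNAs (31263 curated, 41543 predicted). The unit was read from the values, since the header names none. Per the submitters' processing notes, Bowtie2, RSEM 1.3.1 and DESeq2 1.34.0 were used with GRCm38.p6, with no roles stated. Total counts and strand setting are not given in the sources used here, so no counting error can be given.

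FPKM were summed per gene ID (19034). Genes with at least 1 FPKM in at least 3 libraries were tested on log2(FPKM + 1) with limma 3.58.1 in R 4.3.3 (4 group means, trend, robust), and p values were adjusted by Benjamini-Hochberg over all 12931. A gene that reached 1 FPKM in fewer than 3 libraries of a strain would not have entered without the other strain, so its test is no independent support. The fitting code was tested on simulated data. Near-identical copies were found with BLAST 2.17.0 in GENCODE M21 transcripts, and promoters came from RefSeq tables (GRCm38.p6). The alike genes and the gene lists were chosen with earlier results of these data known.

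Named were the 12 highest and 12 lowest alike genes without overlap between strains, with a mean of at least 1 FPKM in the higher strain and leaving out predicted and ribosomal protein genes, up to 4 called members of each list, strain-variable genes, copies, the genes nearest the margin, those with a called change, and members of the longest runs. A few genes that these rules name are not reported here. Other genes given were chosen after their values were seen. Alternatives changed the pseudocount, filter, scaling, mRNA set, moderation, library weights, replicate block, margin and libraries.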

Additional observations from a re-analysis of the deposited data

Results flagged for a closer look

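The strain difference changed between 8 and 17 weeks, by a test of the change itself (limma, adjusted over all genes), in 7 genes. Changes are 17 minus 8 weeks on the log2(FPKM + 1) scale. Cyp27b1 changed by -2.53 ± 0.23 (adjusted p = 0.00534, limma) and passed in 22 of 22 alternatives, with an adjusted p of at most 0.0342.

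Chil1, a chitinase-like protein, changed by 3.31 ± 0.39 (adjusted p = 0.0141, limma). It was at most 0.32 FPKM in C57BL/6, at 1.15, 0.34 and 0.3 in MRL/lpr at 8 weeks, and at 20.68, 9.23 and 19.76 at 17 weeks. Chil1 passed in 13 of 22 alternatives. Gm15056, a predicted gene listed at 0 in all C57BL/6 libraries, was at 0.42, 0.2 and 0 FPKM in MRL/lpr at 8 weeks and 14.34, 5.26 and 12.41 at 17 weeks, a change of 3.19 that passed in 11 of 21. Svs2, a seminal vesicle protein, was listed at 0 in all libraries except those of MRL/lpr at 17 weeks, at 2.48, 1.99 and 1.33, a change of 1.53 that passed in 9 of 21. Gm15056 and Svs2 met the filter of 1 FPKM in 3 libraries only through the 3 MRL/lpr libraries of 17 weeks. Chil1 would not have met it without those libraries either. The tests of Chil1, Gm15056 and Svs2 are therefore no independent support for the change.

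Mylip, a ubiquitin ligase of lipoprotein receptors, went from a difference of -0.69 to 0.35 (change 1.03 ± 0.12, passed in 15 of 22). Hddc2 went from -0.37 to 0.37 (change 0.74 ± 0.09, passed in 12 of 22). Both changed sign, and their mean differences did not pass. Tent4a went from 0.79 to 0.18 (change -0.61 ± 0.07, passed in 12 of 22) and was an alike gene.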

How the results depend on the processing

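Called genes numbered 3108 and alike genes 2730. Over curated mRNAs alone there were 1966 and 1628, and with library weights 5644 and 4863. With 1 library left out they ranged from 2442 to 4651 and from 2105 to 3941, the highest without C57BL/6 17 weeks replicate 2. The 7 genes with a called change with age became 4 with a pseudocount of 0.1, 15 with 0.5, 12 with no filter and 892 with library weights, and 1 to 311 with 1 library left out, the highest again without that library. The 24.9% of 8-week calls repeated at 17 weeks ranged from 8.79 to 51.1 with 1 library left out, and the 74.8% of 17-week calls repeated at 8 weeks from 41.7 to 89.3. The cause of these shifts was not tested. Apart from the replicate block, the remaining alternatives kept each of these counts within 1.5 times, including 1936 genes whose strain difference alike at both ages met a 1.5-fold margin.

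Of the 2446 alike genes tested over curated mRNAs alone, 108 reversed. Among named genes Slc28a1, which was called but not alike, also reversed there (-0.33, adjusted p = 0.687, limma). Of the other values for the named genes 2831 kept their side of the threshold, with the same direction where called. A further 187 no longer passed and 8 newly passed. Replicate numbers are shared between groups, but only 3 of 18 same-numbered pairs deviated together with a correlation above 0.1 (median -0.021, against 0.028 for other pairs). With the replicate block, 2762 genes were called, 2420 alike and 1 changed with age.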
